A study of Macaca mulatta with 7 samples.

Results

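The single-exon genes of the rhesus macaque (Macaca mulatta) exon annotation were examined in sperm RNA. A gene was taken as a member when the deposited exon files listed exactly 1 distinct exon for it, distinct meaning 1 combination of chromosome, start, end and strand. This gave 1133 genes out of 18284 in the files. The other genes used here were 17149 genes of 2 or more distinct exons, and 2 genes listed on both strands, RTN3 and ZC3HAV1, were left out. Total RNA was sequenced from sperm cells of 7 animals, 1 library each, after a PureSperm 40/80 density gradient and TRIzol extraction. The Control group held 4 animals and the Maltreated group 3, all between 5.67 and 5.92 years old, and the series concerns the lasting mark of early life stress on germline RNA. The labels name no strain or allele and do not say what the maltreatment was.

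A gene without introns gives RNA that needs no splicing, and several large gene families are built this way. They include the olfactory and taste receptors, many other receptors that signal through G proteins, the replication-dependent histones and the keratin-associated proteins. Other intronless genes are retrogenes, copies made by reverse transcription of the RNA of a multi-exon parent gene, and a number of these are active late in spermatogenesis. Mature sperm make little or no new RNA, so their RNA is largely what was left from the spermatid. In a sequencing library a read on a single-exon gene carries no splice junction.

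The 1133 genes were short. Their exon length ran from 13 to 8744 bases with a median of 1175 bases, against a median of 2657 bases of summed exon and 8 exons in the multi-exon genes. Under 200 bases were 27 of them (2.38%), so some models are fragments: SNRPD1, a spliceosome core protein, is represented by 13 bases, and the zinc finger gene ZNF468 by 73. By RefSeq symbol or synonym 785 of the 1133 (69.3%) were matched, 779 of them as protein coding and 5 as pseudogenes. Chromosome 11 as the files number it held 160 (14.1%) of the single-exon genes and 1012 (5.9%) of the multi-exon genes, and chromosome X held 74 (6.53%) and 665 (3.88%). Most, 982 (86.7%), lay outside the span of every other gene. A further 57 (5.03%) shared exon bases with another gene on the same strand, 30 (2.65%) were nested in the span of a same-strand gene without touching its exons, and 64 (5.65%) overlapped another gene in some other way. Positions are those of the deposited files. No source used here names their genome build.

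Counts on the strand of a gene are called sense and those on the opposite strand antisense. All genes together had between 4401077 sense counts (Control 4) and 25457641 (Maltreated 1). Single-exon genes took 0.418, 0.541, 0.530 and 0.891% of the sense counts in the 4 Control libraries, in order, and 0.652, 0.431 and 0.452% in the 3 Maltreated ones. Control 4 and Maltreated 3 stood apart in a list of 20 leukocyte genes, none of them single-exon, with summed levels of 834 and 1154 counts per 1000000 sense counts of the library (CPM) against 17.1 to 61.5 in the other 5 libraries. A list of 13 prostate, seminal vesicle and epithelial genes reached 361 CPM in Control 2 and 7.86 to 41.8 CPM elsewhere. Genes of sperm structure, such as the protamines PRM1 and PRM2, summed to 54273 to 112420 CPM in every library.

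Sense RNA of the single-exon genes was patchy. Of the 1133, 155 (13.7%) had a sense count in all 7 libraries and 163 (14.4%) in none, whereas 48% of the multi-exon genes were counted in all 7 and 1.78% in none. A library held a sense count for 349 (Maltreated 2) to 830 (Maltreated 1) of them, and the deepest library held the most. The 10 most counted genes took 49.5 to 62.1% of all single-exon counts in a library. The gene at the top was MGAT2 in Control 1 and Maltreated 2, MTRNR2L2 in Control 2, PRM3 in Control 3 and Maltreated 3, BOD1L2 in Control 4 (17.8% of the single-exon counts) and C10orf62 in Maltreated 1 (18.6%). Levels below are given as CPM per kilobase of exon.

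The gene of highest level is known from late spermatids. PRM3, protamine 3, a small acidic protein encoded beside the protamines that pack sperm DNA, had the highest level of any single-exon gene, 1082 ± 473 CPM per kilobase (SD, n = 7). Its 323-base exon (chr16:11282372-11282694, minus strand) stood at 686, 1894, 1506 and 578 CPM per kilobase in the Control libraries, in order 1 to 4, and at 866, 882 and 1162 in the Maltreated ones. Control libraries gave both the lowest and the highest value, and the Maltreated libraries lay between them. TSSK6, a testis-specific serine kinase needed for chromatin condensation in spermatids, was ninth of the 1133, at 137, 131, 232 and 325 CPM per kilobase in Control and 266, 181 and 147 in Maltreated, with the groups overlapping. UBL4B, a ubiquitin-like protein of elongating spermatids, stood at 74.6 to 147 CPM per kilobase in Control and 86.2 to 178 in Maltreated. PFN3, a testis profilin that binds actin, averaged 91.7 ± 29.8 CPM per kilobase, and H1FNT, the linker histone of elongating spermatids, 73.7 ± 20.4 (SD, n = 7).

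Of the 33 single-exon genes in a list of spermatid and testis genes, all had a sense count somewhere and 20 had one in all 7 libraries. The least variable among those with a level above 10 CPM per kilobase was FAM71A, at 17.2 ± 2.42 CPM per kilobase (SD, n = 7). ACTL7A, an actin-like protein of the sperm head, averaged 18.3 ± 9.36, CETN1, a centrin of the centriole, 26.4 ± 8.76, and ACTRT2, an actin-related protein of the perinuclear theca, 34.7 ± 10.3 CPM per kilobase (SD, n = 7). At the other end POU5F2, DUSP21, NANOS2 and DDX53 were counted in 1 or 2 libraries only. TSSK1B, another testis kinase, gave mostly counts on the opposite strand: 95.0% of its counts were antisense, against 1.29% for TSSK2.

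A second group was high in Control 4 and, for some of its members, in Maltreated 1. C10orf62, a testis gene of unsettled function that lies nested in the span of HOGA1 (chr10:92955448-92956685, plus strand, 1238 bases), stood at 192, 184, 217 and 585 CPM per kilobase in Control and 977, 228 and 139 in Maltreated. C16orf82 showed the same shape, with 88.2, 46.1, 66.0 and 373 CPM per kilobase in Control and 301, 46.4 and 50.2 in Maltreated. BOD1L2, a testis-expressed relative of a chromosome segregation factor (chr18:46550914-46554285, plus strand), reached 472 CPM per kilobase in Control 4 and lay between 57.3 and 99.6 in the other 6 libraries. PGK2, the sperm-specific phosphoglycerate kinase and a retrogene, gave 17.0, 16.5, 20 and 97.4 CPM per kilobase in Control and 33.5, 10.8 and 10.8 in Maltreated. SPZ1, a spermatogenic basic helix-loop-helix factor, and CABS1, a calcium-binding protein of spermatids, peaked in the same library, at 184 and 92.0 CPM per kilobase against 10.3 to 34.3 and 5.24 to 13.7 in the other 6. Control 4 held 834 CPM of leukocyte genes and Maltreated 3 held 1154 CPM, and their part in these levels was not tested. Among the 50 single-exon genes of highest level Control 4 was the lowest library for 16 and the highest for 15.

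**Figure D1:**
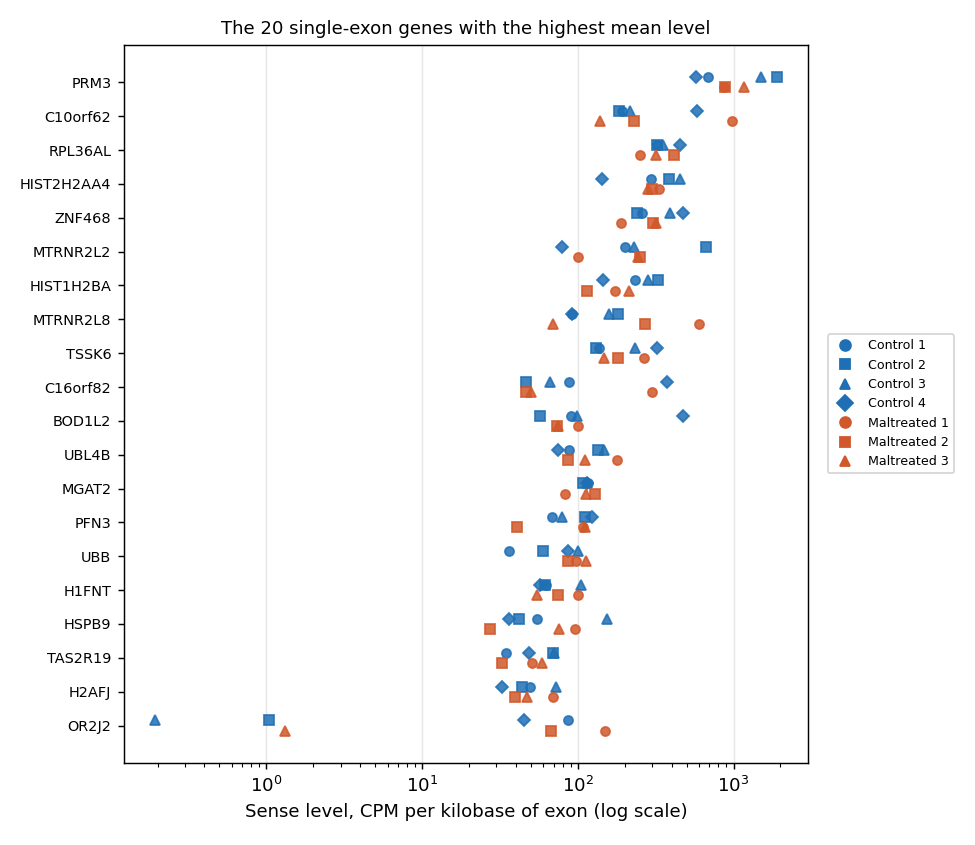
Sense level (CPM per kilobase of exon, log scale) of the 20 single-exon genes with the highest mean level, 1 point per library, blue for the 4 Control and orange for the 3 Maltreated libraries. PRM3 lies highest, at 578 to 1894, Control 4 stands to the right for BOD1L2 and C16orf82, and OR2J2 spans 0.193 to 149.

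Histones were the most widely detected of the large families. All 67 single-exon histone genes had a sense count in at least 1 library and 15 in all 7. HIST2H2AA4, a core H2A gene, stood at 295, 386, 455 and 143 CPM per kilobase in Control and 331, 298 and 283 in Maltreated, and HIST1H2BA, the testis-specific H2B that comes in before the protamines, at 234, 329, 281 and 146 in Control and 174, 115 and 214 in Maltreated. Control 4 was lowest for HIST2H2AA4, and Maltreated 2 for HIST1H2BA. The summed level of the 67 genes was 675 ± 198 CPM in Control (SD, n = 4) and 652 ± 96.3 CPM in Maltreated (SD, n = 3), lowest in Control 4 at 429 CPM. Core histone genes are near copies of one another, so the split of reads among them is uncertain. H2AFJ, a replacement H2A, collected 15098 counts over the 7 libraries on at most 16.7% of its 4323-base exon, so its reads sat on a small part of the model.

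The 3 single-exon ribosomal protein genes were counted in every library. RPL36AL, a retrogene copy of RPL36A, was the highest at 321, 321, 355 and 455 CPM per kilobase in Control and 250, 413 and 319 in Maltreated. Of 21 single-exon retrogenes 20 had a sense count, 9 of them in all 7 libraries. The locus named GLUD2 was the member with none.

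The humanin-like genes carry copies of mitochondrial ribosomal RNA, so reads of mitochondrial RNA can be placed on them and their counts are uncertain. MTRNR2L2 stood at 202, 664, 229 and 79.3 CPM per kilobase in Control and 101, 252 and 244 in Maltreated. The 74-base MTRNR2L8, which lies inside the gene PXDNL, stood at 91.1, 182, 160 and 92.1 in Control and 596, 271 and 69.0 in Maltreated. MTRNR2L10 and MTRNR2L6 were counted on the opposite strand instead, with 1577, 3055, 1265 and 254 antisense counts in Control and 2427, 1461 and 1923 in Maltreated for MTRNR2L10, against at most 86 sense counts. Control 2 was highest and Control 4 lowest for MTRNR2L2, and Control 2 had the most antisense counts of MTRNR2L10 and MTRNR2L6.

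Chemosensory receptors were the largest family. No library held a sense count for more than 50% of the olfactory or 45.2% of the taste, trace amine and vomeronasal genes. Of 272 single-exon olfactory receptor genes, 196 had a sense count somewhere, 7 in all 7 libraries, and 76 in none. In single libraries 14.7% (Maltreated 2) to 50% (Maltreated 1) of them were counted. OR2J2 was highest and also among the most uneven: it stood at 86.3, 1.05, 0.193 and 45.0 CPM per kilobase in Control and 149, 67.4 and 1.31 in Maltreated, so each group held both high and very low libraries. OR4Q3 was steadier, between 3.76 and 30.9 CPM per kilobase. Of 31 taste, trace amine and vomeronasal receptor genes, 21 had a sense count and 3 had one in all 7 libraries. These 3 included the bitter taste receptor TAS2R19, at 34.8, 69.8, 70.2 and 48.3 CPM per kilobase in Control and 50.9, 32.8 and 58.5 in Maltreated, its 899-base exon wholly covered in every library. TAS2R31 and TAS2R43, which lie 43200 bases apart on the same strand, had nearly the same counts: 399, 108, 152, 41, 431, 118 and 178 for TAS2R31 and 452, 111, 152, 44, 475, 96 and 194 for TAS2R43, the 4 Control libraries given first. Counts of close copies are uncertain, and why the counts of TAS2R31 and TAS2R43 ran together was not tested. The zinc finger genes ZNF468 and ZNF600, 54388 bases apart, also ran in parallel, at 81 to 352 and 109 to 454 counts. Their antisense counts were 11, 1, 0, 0, 32, 0 and 3 for ZNF468 and 11, 1, 0, 0, 44, 0 and 3 for ZNF600. In Control 2 ZNF600 was covered over 100% of its 2278 bases on 1 antisense count, and the cause was not tested.

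Other families were thin. Of 59 other rhodopsin-like receptors 52 had a sense count, and 1 had one in all 7 libraries. HCAR2, the niacin receptor, held 86 counts in Control 4 and 80 in Maltreated 3 and between 1 and 19 in the other 5 libraries. JUN, a subunit of the AP-1 transcription factor, likewise held 85 and 324 counts in these libraries, which are the ones rich in leukocyte RNA, and 0 to 31 elsewhere. The part of leukocyte RNA in these genes was not tested. P2RY4, a nucleotide receptor, held 84 counts in Control 4 and 2 or fewer elsewhere. IFNB1, the gene of interferon beta, held 58 counts in Control 4 and none in the other 6 libraries. KCNA3, a lymphocyte potassium channel, held 93 counts in Control 4, 13 in Maltreated 1, 10 in Maltreated 3 and none in the other 4. In Control 4 the counts of HCAR2, JUN, P2RY4, IFNB1 and KCNA3 sat on 4.66, 3.08, 5.97, 20.2 and 5.21% of their exons. In Maltreated 3 HCAR2 was covered over 100%, JUN over 74.3% and KCNA3 over 11.8%. Counts on so small a part can be copies of few molecules, which was not tested. IFNA2, another interferon, held 17, 0, 22 and 0 counts in Control and 17, 0 and 22 in Maltreated. All 16 single-exon protocadherins were counted somewhere and none in all 7 libraries. Of 59 keratin-associated and cornified envelope genes, 26 had no sense count, while KRTAP19-4 and KRTAP19-7 were wholly covered in every library at 9.98 to 35.2 and 2.39 to 53.9 CPM per kilobase.

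**Figure D2:**
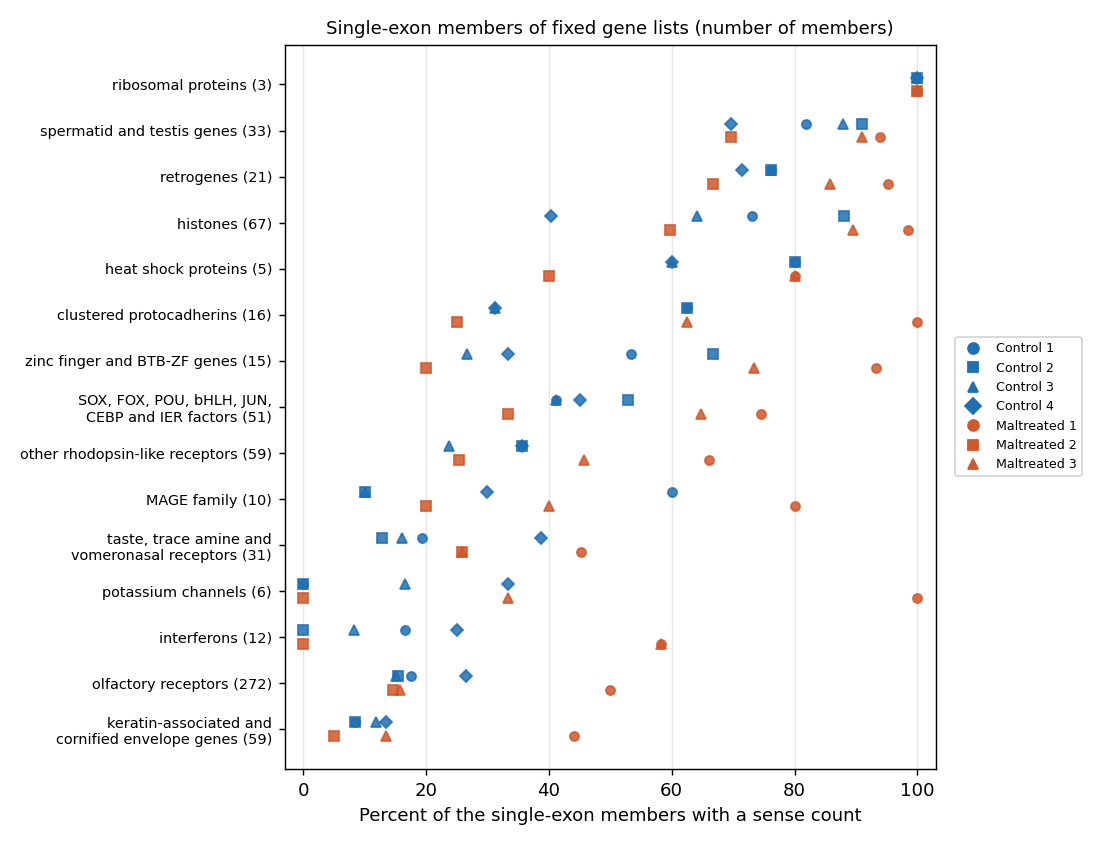
Percent of the single-exon members of each gene list with at least 1 sense count, 1 point per library, blue for Control and orange for Maltreated, with the number of members in brackets. Ribosomal proteins stand at 100% in every library, olfactory receptors between 14.7% and 50%, and Maltreated 1, the deepest library, is highest or shares the highest value in most lists.

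The covered fraction is the part of the exon bases under at least 1 read. It was 100% in all 7 libraries for 19 single-exon genes, and at least 90% in all 7 for 23. Long exons among the former were MGAT2, an enzyme that builds N-linked glycans (2719 bases), ZNF600 (2278 bases), ACTL9, an actin-like protein of the sperm head (1422 bases), OR2L2 (1133 bases) and TAS2R43 (1025 bases). ACTL9 held only 8 counts in Maltreated 2 and OR2L2 10, so full coverage there rested on few counts.

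Covered fraction and count did not always go together. Over all genes a lone count on an exon of 300 bases or more most often covered 98 bases, and 98.7% of 11718 such counts on exons not covered in full covered 101 bases or fewer. Against that measure many single-exon genes were covered over more bases than their counts can hold. Of the members with a sense count in a library, 12.3 to 18.6% had more than 2 times 98 covered bases per count. These exons held 0.406 to 1.01% of the single-exon counts of a library but made up 36.7 to 55.7% of the wholly covered members. A lone count covered the whole exon in 183 of 626 cases, including 106 of 430 on exons of 1000 bases or more. The longest was UBE2QL1, a ubiquitin-conjugating enzyme, whose 5492 bases were wholly covered on 1 count in Control 4. What covers the bases beyond the length of a usual count was not tested.

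This over-coverage fell unevenly over the families. It made up 150 of 422 pairs of a gene and a library with a sense count in the olfactory receptors (35.5%) and 59 of 158 in the other rhodopsin-like receptors (37.3%). In the histones it made up 13 of 344 (3.78%), in the spermatid and testis genes 5 of 193 (2.59%) and in the retrogenes 3 of 115 (2.61%). All 16 protocadherins were wholly covered in Maltreated 1, PCDHB2 on 5 counts over 2724 bases. The opposite case was ARC, a neuronal protein of retroviral origin, with 2078 counts on at most 3.49% of its 3322 bases.

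**Figure D3:**
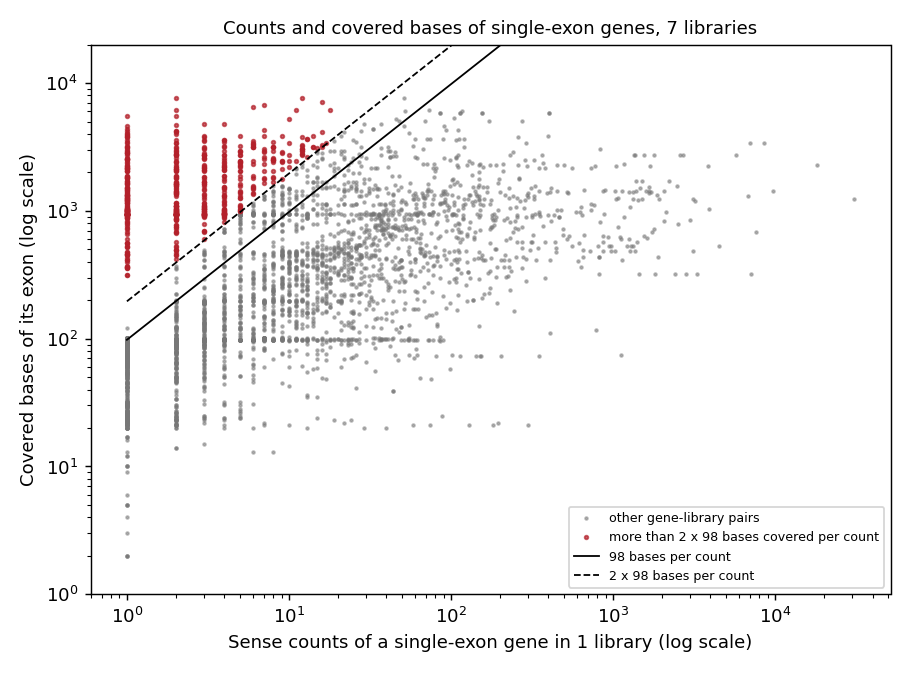
Covered bases of the exon against sense counts, both on log scales, 1 point for each single-exon gene with a sense count in each of the 7 libraries. Lines mark 98 and 2 times 98 covered bases per count, and red points above the dashed line are the over-covered exons, which reach 5492 bases on 1 count.

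Compared with multi-exon genes of like summed exon length (multi-exon genes weighted to the length distribution of 1109 single-exon genes), single-exon genes were found less often and at lower level, and a larger share of their counts was antisense. The test was an exact two-sided sign-flip permutation over the 7 library differences, whose smallest possible p is 0.0156, adjusted by the Benjamini-Hochberg method over 9 such tests. Its p covers the spread over libraries for fixed sets of genes and not the spread over genes. A sense count was found for 44.8 ± 13.9% of the single-exon and 69.3 ± 11.2% of the like-length multi-exon genes (SD, n = 7), a difference of -24.5 percentage points with a range of -29.9 to -14.9 (7 of 7 libraries, exact permutation adjusted p = 0.0201). The smallest gap was in Maltreated 1, the deepest library, with 74.1% against 89.0%. Without the olfactory, taste and keratin-associated lists the difference was -15.5 points. The level, as the mean of log2(CPM per kilobase + 0.1), was lower by 2.22 ± 0.26 log2 units (difference -2.22, SD over 7 libraries, 7 of 7, exact permutation adjusted p = 0.0201). Summing over exons can count a read that spans several exons more than once, which a single exon cannot show, while the share of genes with a count does not depend on it. The antisense share of counts can depend on such summing as well as the level, which was not tested.

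The mean covered fraction on the sense strand was 21.9 ± 11% for single-exon and 34.8 ± 14.6% for like-length multi-exon genes (SD, n = 7; 7 of 7 libraries, exact permutation adjusted p = 0.0201). With genes of 10 or more counts compared at like length and like count the order turned: single-exon genes were covered over 54.1 ± 12.2% and multi-exon genes over 49.0 ± 11% (SD, n = 7). That difference of 5.07 percentage points held in 6 of 7 libraries (exact permutation adjusted p = 0.0352), with -0.372 in Control 4. It was 2.19 points without the olfactory, taste and keratin-associated lists (exact permutation adjusted p = 0.1875). The call was lost when any 1 library but Control 4 was left out, at 4.72 to 5.15 points (exact permutation unadjusted p = 0.0625). The smallest p that 6 libraries allow is 0.03125. Without the over-covered exons of all genes the difference was 9.96 points. Only exons longer than 196 bases can meet that criterion. 75.3% of the distinct exons of multi-exon genes, whose median is 133 bases, and 2.29% of the single exons are too short for it.

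**Figure D4:**
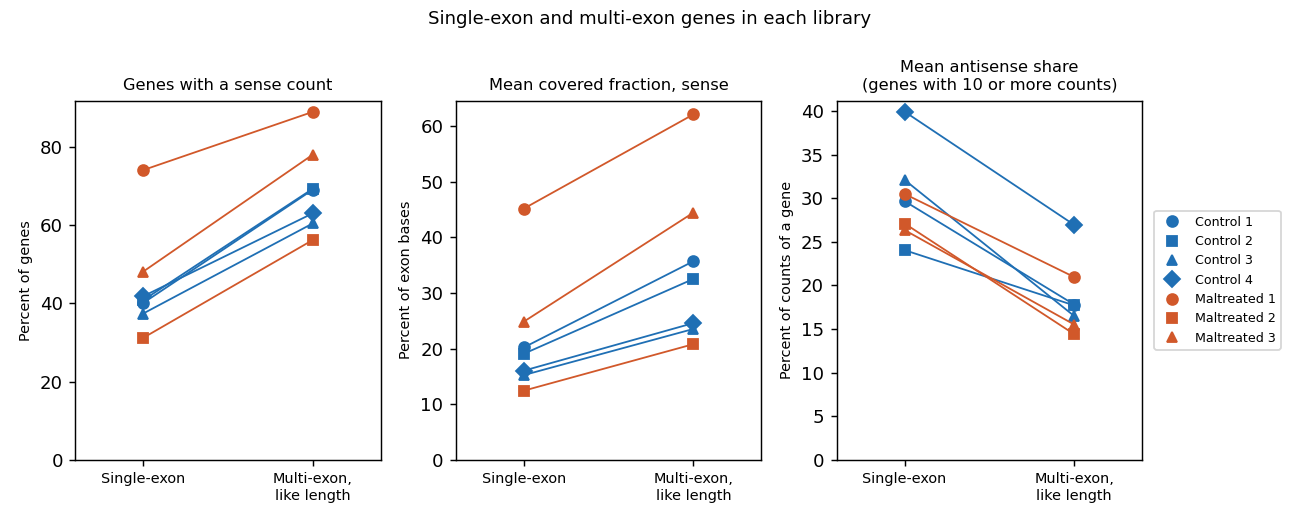
Single-exon genes and multi-exon genes weighted to like length, joined for each library, in percent: genes with a sense count, mean covered fraction and mean antisense share. The single-exon value is lower in all 7 libraries in the left and middle panels and higher in all 7 in the right panel.

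Antisense counts were a larger share of the counts of single-exon genes. In genes with 10 or more counts on both strands together, the antisense share averaged 29.9 ± 5.17% in single-exon and 18.5 ± 4.24% in like-length multi-exon genes (SD, n = 7), a difference of 11.4 percentage points with a range of 6.34 to 15.6 (7 of 7 libraries, exact permutation adjusted p = 0.0201). Having any antisense count was less frequent, at 35.5% of single-exon and 44.9% of like-length multi-exon genes (7 of 7 libraries, exact permutation adjusted p = 0.0201). Of 444 single-exon genes with 50 or more counts over both strands and all libraries, 119 had more antisense than sense counts.

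A neighbouring pair held a sizeable part of the antisense counts summed over single-exon genes. This sum is a measure apart from the mean share over genes given above. RPL36AL (chr14:111439346-111439834, minus strand, 489 bases) and MGAT2 (chr14:111441410-111444128, plus strand, 2719 bases) lie 1575 bases apart on opposite strands, and each was wholly covered in every library. RPL36AL had 1280, 724, 866, 979, 3118, 1027 and 1377 sense counts, the Control libraries before the Maltreated ones, and MGAT2 had 1249, 704, 863, 981, 3067, 1019 and 1303 antisense counts. The sense counts of MGAT2 were 2575, 1356, 1550, 1364, 5724, 1792 and 2714, and the antisense counts of RPL36AL 2553, 1325, 1546, 1364, 5680, 1780 and 2663. The antisense count of each gene thus followed the sense count of the other closely in all 7 libraries, although their exons do not overlap. The pair made up 18.7% (Control 2) to 31.8% (Control 1) of all antisense counts on single-exon genes. With it left out the single-exon antisense share of all counts was 14.6 to 27.9%, against 17.6 to 30.3% with it and 6.42 to 12.3% over all genes. This pair was picked out after its values were seen.

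Some single-exon genes were almost wholly antisense. PPP1R3D, a glycogen-targeting subunit of protein phosphatase 1 (chr15:4451976-4455447, plus strand), had 1500, 527, 978 and 839 antisense counts in Control and 5424, 855 and 1816 in Maltreated, with at most 18 sense counts in a library. OXCT2, a testis ketone-body enzyme that overlaps BMP8B, was 99.1% antisense, and ERVV-2, an endogenous retroviral envelope gene, 99.3%. TAS2R30 and TAS2R46 share exon bases and had identical antisense counts of 165, 47, 120 and 131 in Control and 338, 57 and 102 in Maltreated, with no sense count, so their reads count as 1 locus.

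Nested single-exon genes differed from those standing apart in these libraries. Every library difference drew on the same genes, so the p values cover the spread over libraries and not that over genes. The 30 genes inside the span of a same-strand host had a sense count in 58.6% of cases and the 982 genes standing apart in 43.6%, a difference of 15 percentage points (7 of 7 libraries, exact permutation adjusted p = 0.0201). The difference was not adjusted for length. Their antisense share was 5.57% against 29.0%, a difference of -23.5 points (7 of 7 libraries, exact permutation adjusted p = 0.0201), on 6 to 17 nested genes with 10 or more counts. With hosts on either strand the latter was -4.02 points (exact permutation adjusted p = 0.0938). The mean covered fraction was 31.5% against 21.6%, in 6 of 7 libraries (exact permutation adjusted p = 0.0469), and the call was lost without the over-covered exons, at 4.97 points (exact permutation adjusted p = 0.109). It was also lost when any 1 library but Control 3 was left out, at 7.95 to 10.6 points. Among the nested genes C10orf62 held 41269 sense counts over the 7 libraries, and PAPOLB, a testis poly(A) polymerase in RADIL, held 246.

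Whether maltreatment went with a change in these RNAs was tested with edgeR's quasi-likelihood test on all genes. No single-exon gene was called in the sense counts: 172 of the 1133 (15.2%) passed the filter on low counts, and at an adjusted p under 0.05 the share called was 0% of 10479 tested genes. The smallest adjusted p of a single-exon gene was 0.99987. At an unadjusted p under 0.05 stood 1 of the 172 single-exon genes and 1.83% of all tested genes, and DESeq2's Wald test called 0 single-exon genes and 2 genes in all. Log2 fold changes, Maltreated over Control, were above 0 for 80 of the 172 and for 49% of all tested genes, with a median of -0.12 against -0.01. The labels do not say whether a library stands for 1 ejaculate or several, so the spread includes both animals and any technical part.

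The gene under that unadjusted threshold was NRARP, a regulator in the Notch pathway. It was lower in Maltreated, a direction that 0.916% of all tested genes took at this threshold, and 0.916% took the other. It stood at 4.98, 21.8, 11 and 19.4 CPM per kilobase in Control and 5.26, 6.34 and 3.24 in Maltreated, a log2 fold change of -1.53 ± 0.64 (SE, edgeR unadjusted p = 0.0348, adjusted p = 0.99987). Control 1 lay within the Maltreated range, so the groups overlapped. The counts of NRARP covered 100, 20.9, 4.57 and 100% of its exon in Control and 100, 0.915 and 11.5% in Maltreated. Some of its levels thus rested on a small part of the exon. ARC stood at 6.75, 19.7, 11.8 and 28.1 CPM per kilobase in Control and 9.27, 7.64 and 2.53 in Maltreated, again with overlap, at -1.34 ± 0.63 (SE, edgeR unadjusted p = 0.0577). Its counts sat on at most 3.49% of its exon. BOD1L2, CABS1 and SPZ1 also had negative values, at -1.13, -1.69 and -1.48. Without Control 4 they were -0.058, -0.13 and 0.046, and without both Control 4 and Maltreated 3 they were 0.053, 0.16 and 0.41. TIGD4, a transposase-derived gene, had a log2 fold change of -2.90 on 0 to 76 counts.

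In the other direction PPP3R2, the testis regulatory subunit of calcineurin nested in GRIN3A, had 10, 3, 3 and 1 counts in Control and 55, 27 and 26 in Maltreated. Per kilobase this was 0.0673 to 0.363 CPM in Control and 0.640 to 1.57 in Maltreated, without overlap, at a log2 fold change of 2.27 ± 1.23 (SE, edgeR unadjusted p = 0.0917). The 10 counts of PPP3R2 in Control 1 covered its whole 3376-base exon, while the 55 in Maltreated 1 covered 21.4%. CAPZA3, the sperm actin-capping subunit, stood at 28.6, 11.9, 19.9 and 5.49 CPM per kilobase in Control and 46.6, 22.7 and 29.8 in Maltreated, with overlap, at 0.96 ± 0.65 (SE, edgeR unadjusted p = 0.167). EMC6, a membrane protein insertase subunit, OR1I1, OR4K2 and MTRNR2L8 had log2 fold changes of 1.73, 1.87, 2.43 and 1.26, each with overlapping groups. Without Maltreated 1, OR1I1 stood at 0.56 and MTRNR2L8 at 0.36, and without Control 1 EMC6 stood at 2.79. CAPZA3 stood at 0.58 without Maltreated 1 and at 0.64 without Control 4.

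Groups did not overlap in sense CPM for 3 of the 172 single-exon genes, against 3.57% of all tested genes. The 1 higher gene stands beside 2.35% of all tested genes and the 2 lower ones beside 1.22%. They were PPP3R2 and, lower in Maltreated and named after their values were seen, PYDC2, an inflammasome inhibitor, and AMER2, a Wnt pathway regulator. PYDC2 stood at 40.7, 31.1, 44.4 and 32.5 CPM per kilobase in Control and 27.1, 16.9 and 29.0 in Maltreated, and AMER2 at 2.05, 2.81, 1.64 and 4.88 in Control and 1.5, 0.497 and 1.29 in Maltreated.

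**Figure D5:**
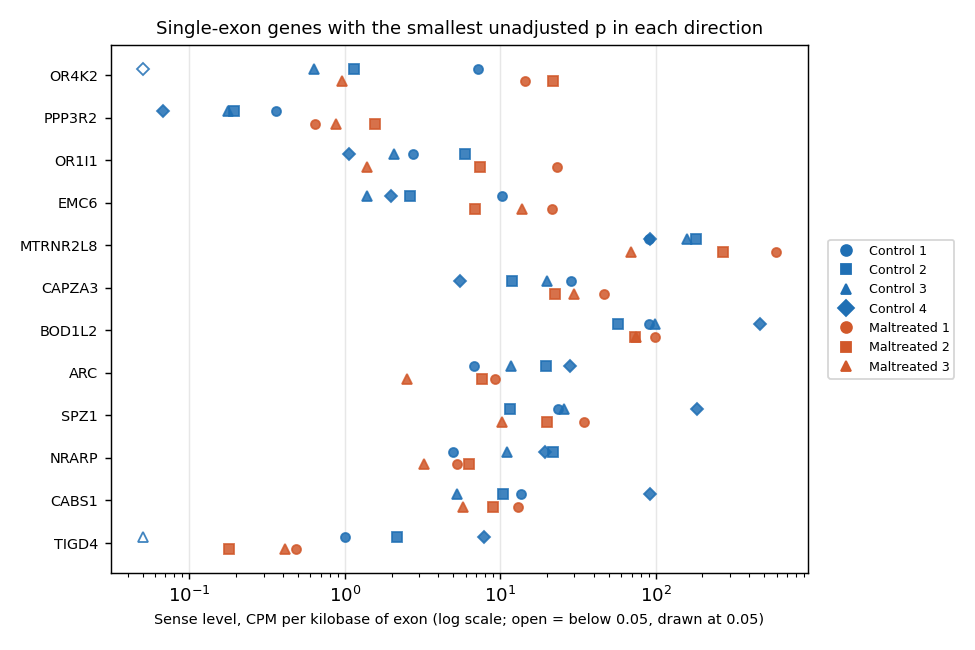
Sense level (CPM per kilobase of exon, log scale) of the 6 single-exon genes with the smallest unadjusted p in each direction of Maltreated over Control, ordered by log2 fold change, 1 point per library; open points lie below 0.05 and are drawn there. PPP3R2 is the gene without overlap between groups, and Control 4 stands alone on the right for BOD1L2, SPZ1 and CABS1.

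By list, the tested members split as follows, with no member called in any list. Of 23 tested spermatid and testis genes 12 had a positive and 11 a negative log2 fold change, with a median of 0.02 beside the -0.01 of all tested genes. Histones gave 10 positive and 6 negative values with a median of 0.11, retrogenes 5 and 8 with a median of -0.28, and olfactory receptors 6 and 4 with a median of 0.61. As single libraries were left out, the medians ran from -0.27 to 0.32 for the spermatid and testis genes, from -0.14 to 0.30 for histones, from -0.43 to 0.03 for retrogenes and from -0.57 to 0.63 for olfactory receptors, so the sign of each changed. The retrogene median was 0.35 without both Control 4 and Maltreated 3. Fewer sperm or other cells of a type and less RNA per cell cannot be told apart in these bulk libraries.

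Antisense counts gave the same number of calls, 0% of 3980 tested genes and none of 60 single-exon genes by edgeR's adjusted p. At an unadjusted p under 0.05 stood 2 of the 60 and 2.69% of all, and DESeq2 called none of the single-exon genes. Both were higher in Maltreated, as were 1.11% of all tested genes, while 1.58% were lower. WWOX, an oxidoreductase gene represented here by a 770-base exon, had 2, 3, 0 and 1 antisense counts in Control and 46, 41 and 27 in Maltreated (log2 fold change 3.94 ± 1.61, SE, edgeR unadjusted p = 0.0308, adjusted p = 0.997). PCDHB1, a clustered protocadherin, had 0, 3, 0 and 0 in Control and 42, 28 and 31 in Maltreated (edgeR unadjusted p = 0.0367). In the Maltreated libraries the antisense counts covered 23.0, 13.0 and 14.4% of the exon of WWOX and 100, 3.91 and 100% of that of PCDHB1. Counts on a small part of an exon can be copies of few molecules, which was not tested. The groups did not overlap for these genes and for CCRL1, a chemokine receptor relative named after its values were seen, which had 9, 0, 5 and 0 antisense counts in Control and 54, 15 and 19 in Maltreated, so for 3 of 60 against 4.22% of all tested genes. All 3 were higher in Maltreated, beside 2.86% of all tested genes that were higher and 1.36% that were lower without overlap. Antisense log2 fold changes were above 0 for 30 of the 60 and for 46.2% of all. MTRNR2L6, SPACA4 and PCDHB2 had the smallest p among the negative values, with log2 fold changes of -1.16, -2.92 and -2.05 and overlapping groups. MTRNR2L6 stood at -0.016 without Control 2. The third gene by p among the positive values was UBQLNL, a testis ubiquilin, with 65, 11, 34 and 73 antisense counts in Control and 1628, 111 and 39 in Maltreated, which overlap. Its log2 fold change was 2.08 ± 1.10 (SE, edgeR unadjusted p = 0.0817) and 0.88 without Maltreated 1.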

How the data were processed

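Exon files of 7 libraries of rhesus macaque sperm total RNA were used, a forward and a reverse file each. The counts are reads per exon entry, not normalised, as deposited by the authors. The covered fraction, as deposited by the authors, is covered bases over exon length. STAR, featureCounts and bedtools are named, without version or role, per the submitters' processing notes. A table of the whole series was not used, because the rule needs single exons.

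Sense counts are those of the file of the gene's own strand. Counts were summed over distinct exons, 190578 of 233690 entries. Listed repeats were an alternative, since 6 single-exon genes were listed more than once. CPM was taken over all sense counts of a library. Maltreated was compared with Control by edgeR 4.0.16 (R 4.3.3; TMM, filterByExpr with a minimum count of 10 and a total of 15, quasi-likelihood F test, 5 residual degrees of freedom, Benjamini-Hochberg adjustment over all tested genes, threshold 0.05). DESeq2 1.42.0 was an alternative. Single-exon and multi-exon genes were compared in length bins of 0.25 log2 units with 1 difference per library. Pandas 2.3.3 and numpy 2.4.6 were used, and the procedures were run on simulated data. The edgeR run was required to recover changes only at a dispersion (spread between libraries beyond counting noise) of 0.05. These libraries had a common biological coefficient of variation of 0.833, the square root of the dispersion. That requirement therefore says little about recovery at the spread of these data. Totals of 4401077 to 25457641 sense counts limit the precision of low genes, and PCR copies cannot be told from molecules.

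Genes are named by rule: the 12 of highest level, the 6 of smallest unadjusted p in each direction (3 for antisense), the 2 highest of each list, the 5 of highest antisense share among those with a mean antisense count of 50 or more, and the 5 of 1000 bases or more whose lowest covered fraction over the libraries is highest. All other genes named were chosen after their values were seen. Members and lists were chosen with earlier results of these data known. Without the olfactory, taste and keratin-associated lists, without Control 4 and Maltreated 3, and with over-covered exons set to 0 are alternatives chosen after seeing the data. A check of gene-model length against RefSeq is void, because 69.3% of the members were matched.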

Additional observations from a re-analysis of the deposited data

Results flagged for a closer look

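In 24 of 70 sets of the 4 Control values, 1 library lay far from the other 3 by Dixon's test. Chance gives about 1 in 20 for values that did not choose the gene. That rate does not apply here, since the naming rules used means that 1 high library raises and some counts were 0, so the number of sets is a description only. Most were high in Control 4: C10orf62 (585 CPM per kilobase), C16orf82 (373), BOD1L2 (472), CABS1 (92.0), SPZ1 (184), PGK2 (97.4), HCAR2 (9.49), P2RY4 (11.6), PCDHB2 (6.01), PCDHB11 (8.70), IER5 (6.52), IFNB1 (15.7), KCNA3 (6.33), KCNE1L (5.63) and MAGEL2 (0.778). Control 4 was also high in antisense CPM of SPACA4 (27.9) and ERVV-2 (30.4). Control 4 gave the outlying difference in covered fraction at like count between single-exon and multi-exon genes, -0.372 percentage points. Control 4 held 834 CPM of leukocyte genes and Maltreated 3 held 1154 CPM. In Maltreated 3, C10orf62, C16orf82, BOD1L2, CABS1, SPZ1 and PGK2 stood at 139, 50.2, 74.5, 5.77, 10.3 and 10.8 CPM per kilobase. HCAR2 and IER5 stood at 4.4 and 3.84 there, and P2RY4, IFNB1 and KCNE1L at 0. In Control 4 the counts of PCDHB2, KCNE1L and MAGEL2 sat on 3.6, 6.96 and 2.61% of their exons. Those of BOD1L2, SPZ1 and IER5 covered 100, 98.9 and 100%. The part of leukocyte RNA in these values was not tested.

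Other libraries stood apart for single genes. Control 1 was high for OR4K2 (7.14 CPM per kilobase) and EMC6 (10.2), Control 3 for HSPB9, a testis heat shock protein (154 CPM per kilobase), and for antisense RNA of PCDHB2 (17.4 CPM), and Control 2 for antisense RNA of PCDHB1 (0.651 CPM, the others at 0). Control 2 was low for antisense RNA of PPP1R3D (114 CPM, the others at 184 to 196).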

How the results depend on the processing

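The 5 other differences between single-exon and like-length multi-exon genes kept direction and call under every alternative run, leave-one-out included. All were smaller without the olfactory, taste and keratin-associated lists. The gap was then -15.5 points beside -24.5 for a sense count and -5.07 beside -9.40 for an antisense count. For covered fraction it was -9.11 beside -13.0 points, for level -1.87 beside -2.22 log2 units, and for antisense share 8.91 beside 11.4 points. The difference in covered fraction at like count ran from 4.72 to 5.97 points as single libraries were left out and was 2.19 points without the olfactory, taste and keratin-associated lists. Without standardisation for length it was 15.8 points. The nested difference in covered fraction ran from 7.95 to 12.5 points as libraries were left out and was 4.97 points with over-covered exons set to 0. With hosts on either strand the nested difference in antisense share was -4.02 points. Calls lost on leaving out a library had exact permutation unadjusted p of 0.0625 to 0.09375. The smallest p that 6 libraries allow is 0.03125, so that limit alone does not account for them. The cause of the lost calls was not tested.

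Over all genes, the 0 calls in sense counts became 2 with DESeq2, and the 0 in antisense counts became 2 with DESeq2 and 28 without a filter on low counts, none of them single-exon. Without Control 4 and Maltreated 3 the log2 fold changes of BOD1L2, CABS1 and SPZ1 turned to 0.053, 0.158 and 0.406, and SPZ1 ran from -1.999 to 0.046 as single libraries were left out. The cause was not tested. With a replicate block the edgeR test called 0 genes in sense and 0 in antisense counts. Same-numbered libraries correlated at 0.088, 0.020 and -0.016 in their deviations from the group means. Libraries of unlike number correlated at -0.120 to 0.098, so no pairing by number was seen. Values like these cannot exclude that the animals were matched. Of the 1133 single-exon genes 961 did not pass the filter on low counts, and the part of depth in this was not tested.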

Other observations

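Of the 74 single-exon genes on chromosome X, 67 had a sense count in at least 1 library and 4 in all 7. Among the 50 single-exon genes of highest level, the highest library stood at a median of 3.64 times the lowest, and 7 of the 50 spread more than 10 times. Besides H2AFJ and ARC, 5 genes had 100 or more sense counts over the 7 libraries and a covered fraction under 20% in every library: TMEM185B had 147 sense counts on at most 14.6% of 6437 bases, FAM43A 125 on at most 9.58% of 3133 bases, INSM1, a neuroendocrine transcription factor, 119 on at most 5.07% of 2842 bases, TAF1L, a testis retrogene copy of a TFIID subunit, 118 on at most 11.5% of 6229 bases, and KCNA3 116 on at most 11.8% of 3338 bases. FAM43A held 2 to 15 counts in 6 of the libraries and INSM1 5 to 35 in all 7. The 35 counts of INSM1 in Maltreated 1 covered 5.07% of its exon, and the 15 of FAM43A in Control 3 covered 0.766%. Why these counts sat on a small part of the exon was not tested.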
